A study of Mus musculus with 22 samples.

Results

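The genes described here are those that make, move and break down prostaglandin E2, the lipid signal of fever, and they were followed in the hypothalamus of mice with and without interleukin-6 (IL-6) after a bacterial challenge. They were chosen by symbol: Pla2g4a, Ptgs1, Ptgs2, Ptges, Ptges2, Ptges3, Ptgds, Slco2a1, Abcc4 and Hpgd. Of these 10 genes, 9 were measured among the 19935 genes with a probe set of a single symbol. Ptgs1, which encodes the constitutive cyclooxygenase COX-1, was not listed by symbol in the platform annotation and was not analysed here. Each measured gene had a single probe set except Ptges3, whose 3 probe sets were averaged.

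The study asked whether genes that differ after lipopolysaccharide (LPS) between mice lacking IL-6 and their littermates could account for a fever response that is absent without IL-6. Male C57bl6 mice, 9 to 12 weeks old and housed singly, were labelled IL-6 KO or wild type (WT), and the WT littermates came from the same parents as the KO mice. LPS from Escherichia coli, a cell wall component that triggers fever and inflammation, was injected into the peritoneum at 120 µg/kg, and controls of each genotype received saline. All mice were killed 3 h later and perfused with saline before the hypothalamus, where body temperature is regulated, was taken. Expression was measured on Affymetrix arrays, with 7 arrays in the KO LPS group, 4 in the KO saline group, 7 in the WT LPS group and 4 in the WT saline group. Whether every array came from a different mouse is not in the labels, and p-values here cover the spread between arrays, which may be technical. The labels also do not say how the Il6 gene was altered. The IL-6 deficiency is named without a driver or a cell type, and the tissue was whole hypothalamus, in which fewer cells of a type and less RNA per cell cannot be told apart.

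Prostaglandin E2 is made from arachidonic acid, which phospholipase A2 enzymes free from membranes. A cyclooxygenase turns it into prostaglandin H2, and prostaglandin E synthases finish the product. In fever, the enzymes are induced by inflammatory signals in brain endothelial and perivascular cells, and prostaglandin E2 acts on EP3 receptors of preoptic neurons. The signal ends by uptake into cells and oxidation by the dehydrogenase that Hpgd encodes.

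The deposited values are log2 values from which the authors had taken each probe set's median over the 22 arrays. A value of 1 therefore means that a gene was at 2 times its level in the median array, and no gene's level can be set against another's from the values themselves. The rounding of the stored numbers left a trace of the level before that step: Ptgds and Ptges3 lay between 8 and 16 on the authors' scale and the other 7 measured genes between 4 and 8, which is a description of probe brightness. By the same trace, 5 of 10 measured hypothalamic neuron markers (Pmch, Hcrt, Trh, Oxt and Avp) were placed between 8 and 16. All 10 choroid plexus markers and 6 of 7 measured pituitary markers were placed between 4 and 8. The trace places a gene by most of its values and not by each array. Ttr ran from -0.68 to 4.62 and Gh from -0.51 to 3.96, so not every array can lie between 4 and 8 for these genes. Differences are log2 values with their standard error (SE) from limma's moderated test on all 22 arrays, and a gene is called changed at an adjusted p (Benjamini-Hochberg over 19935 genes) under 0.05.

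Some features of the whole series bear on what follows. The numbers in the sample titles run from 1 to 22, and 4286 of 19935 genes differed between arrays numbered 1 to 11 and those numbered 12 to 22. The labels do not say what the numbers stand for. Arrays 1 to 11 (the low numbers) held 2 KO LPS, 1 KO saline, 5 WT LPS and 3 WT saline arrays, and arrays 12 to 22 (the high numbers) held 5, 3, 2 and 1 in the same order, so each set of numbers held every group. Choroid plexus or pituitary genes were high on several arrays. An alternative analysis left out 4 of them, namely KO LPS replicate 3, KO saline replicate 2, WT LPS replicate 5 and WT saline replicate 1. Below they are called the 4 arrays high in choroid plexus or pituitary genes. KO LPS replicate 5 was kept, though its mean of the pituitary markers was also high, at 0.64. The choroid plexus marker mean was 0.30 on WT LPS replicate 5. It was 0.26 on WT LPS replicate 2 and 0.24 on KO LPS replicate 4, which were also kept. The probe set of Il6 did not separate the genotype labels: it averaged 0.24 ± 0.20 in KO LPS, -0.12 ± 0.04 in KO saline, 0.07 ± 0.14 in WT LPS and -0.14 ± 0.04 in WT saline arrays (SD, n = 7, 4, 7 and 4), and its LPS difference was 0.36 (SE 0.08, adjusted p = 0.0193) in KO and 0.21 (SE 0.08, adjusted p = 0.457) in WT. Where that probe set lies relative to the altered part is not given, so it does not check the labels.

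After LPS, Ptgs2, an inducible cyclooxygenase, rose and Hpgd, the degrading enzyme, fell in both genotypes, which made 2 of the 9 measured genes called in KO, beside 1.34% of all genes tested. Ptges, an inducible synthase, rose in WT, where 3 of 9 were called beside 1.8% of all genes, and in the average over genotypes, where 3 of 9 were called beside 2.76%. Ptges did not pass in KO (adjusted p = 0.831), and its WT call was lost in 22 of 34 alternative analyses. The stretches of DNA before the annotated start sites of these genes are given first. Where transcription starts in this tissue was not measured, so positions hold for the annotated start only. The sequences are those of RefSeq on GRCm38.p6, 5′ to 3′ on the gene's strand, 250 bases up to the base before the start. Windows were found for all 10 genes. Capitals mark letters that matched a searched motif on either strand.
Ptgs2, chr1:150099781-150100030, plus strand: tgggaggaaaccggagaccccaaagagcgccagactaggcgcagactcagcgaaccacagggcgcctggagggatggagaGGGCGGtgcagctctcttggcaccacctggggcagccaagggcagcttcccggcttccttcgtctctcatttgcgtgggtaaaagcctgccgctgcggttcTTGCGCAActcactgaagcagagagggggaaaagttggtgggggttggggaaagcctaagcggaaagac
Ptges, chr2:30903298-30903547, minus strand: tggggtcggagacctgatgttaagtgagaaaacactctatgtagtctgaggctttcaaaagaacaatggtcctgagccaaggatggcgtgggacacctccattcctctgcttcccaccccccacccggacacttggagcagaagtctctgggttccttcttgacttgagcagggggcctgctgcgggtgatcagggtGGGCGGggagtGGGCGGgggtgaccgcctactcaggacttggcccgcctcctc
Hpgd, chr8:56294302-56294551, plus strand: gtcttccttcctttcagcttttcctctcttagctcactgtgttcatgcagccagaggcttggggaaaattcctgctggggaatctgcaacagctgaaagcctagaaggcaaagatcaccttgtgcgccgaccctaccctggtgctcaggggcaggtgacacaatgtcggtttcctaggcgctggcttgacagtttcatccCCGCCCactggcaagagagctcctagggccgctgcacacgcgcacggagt
In Ptgs2 the capitals are a GC box (GGGCGG) and, at -69 to -62 from the start, a C/EBP site (TTGCNNAA). Ptges held 2 GC boxes, at -53 to -48 and at -42 to -37. Hpgd held 1 GC box on the other strand, at -50 to -45. Over windows that also include the first 50 bases after the start, a GC box was found in 35.7% and a C/EBP site in 10.8% of all 32851 RefSeq windows. Just after the annotated start of Ptgs2 lay the core of a cyclic AMP response element (TGACGTNN, on the other strand) and an E-box (CACGTG), which share 2 bases and are shown in capitals in a stretch of 28 bases.
Ptgs2, chr1:150100033-150100060, plus strand: agtcaccaCTACGTCACGTGgagtccgc
The core was found in 7.49% and the E-box in 7.15% of all windows. The NF-kB, STAT (TTCNNNGAA), core promoter box (TATAAA), full cyclic AMP (TGACGTCA) and glucocorticoid elements were also searched on both strands, and none was found in the windows of Ptgs2 or Ptges. DNA more than 250 bases before the annotated start was not searched. Hpgd held the core promoter box at 5 to 10 after the start, as did 13.6% of windows somewhere in their length. These matches describe letters only.

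Ptgs2, which encodes the inducible cyclooxygenase COX-2, changed the most of the 9 genes. In KO LPS arrays it ranged from -0.62 to 0.84 with a median of 0.21, against -1.06, -1.18, -1.21 and -1.48 in the 4 KO saline arrays. In WT LPS arrays it ranged from 0.0054 to 1.204 with a median of 0.42, against -1.17, -0.95, -1.09 and -0.94 in the 4 WT saline arrays. Every LPS array lay above every saline array in either genotype. The difference was 1.35 in KO (SE 0.22, adjusted p = 0.000617), a 2.55-fold rise, and 1.55 in WT (SE 0.22, adjusted p = 8.15e-05), a 2.93-fold rise. The exact two-sided permutation test gave p = 0.00606 in each genotype, the smallest that 7 against 4 arrays allow. Within the low and the high numbers, the difference was 1.25 and 1.38 in KO and 1.62 and 1.37 in WT, of which the WT value of the low numbers passed.

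Ptges encodes the microsomal prostaglandin E synthase that works with COX-2. It ranged from -0.11 to 0.26 with a median of 0.08 in KO LPS arrays, against 0.01, -0.11, -0.15 and -0.21 in KO saline arrays. In WT LPS arrays it ranged from -0.10 to 0.54 with a median of 0.29, against -0.04, -0.03, -0.17 and -0.32 in WT saline arrays. The groups overlapped in both genotypes, with 4 of 7 KO LPS and 6 of 7 WT LPS arrays above every saline array of their genotype. The difference passed in WT, at 0.36 (SE 0.09, adjusted p = 0.0467), and did not pass in KO, at 0.20 (SE 0.09, adjusted p = 0.831). The test of the difference between those responses gave -0.16 (SE 0.13, 95% interval -0.43 to 0.11), so a weaker response in KO was not shown. Averaged over genotypes, Ptges rose by 0.28 (SE 0.07, adjusted p = 0.0152), a 1.21-fold rise.

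The Ptges call depended on the analysis, and Ptges moved with the title numbers. Over the 34 alternatives the WT difference ran from 0.30 to 0.43, and 17 of the 22 that each left out 1 array lost the call (adjusted p from 0.00736 to 0.269 over the 22), and it was kept without KO LPS replicate 1 or 5, KO saline replicate 1 or WT LPS replicate 5 or 6. The averaged call was lost without WT saline replicate 4 (0.25, adjusted p = 0.0524), within the low numbers (0.29, adjusted p = 0.126) and within the high numbers (0.27, adjusted p = 0.162). Ptges was also lower by -0.22 on arrays numbered 12 to 22 than on those numbered 1 to 11 (SE 0.06, adjusted p = 0.00597). With the set of numbers as a term, the WT difference was 0.37 (adjusted p = 0.00323) and the KO difference 0.19 (adjusted p = 0.412). Within the low and the high numbers the difference was 0.21 and 0.18 in KO and 0.37 and 0.36 in WT.

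Hpgd encodes 15-hydroxyprostaglandin dehydrogenase, which inactivates prostaglandin E2. It ranged from -0.13 to 0.24 with a median of -0.04 in KO LPS arrays, against 0.53, 0.43, 0.48 and 0.35 in KO saline arrays. In WT LPS arrays it ranged from -0.26 to 8.4e-05 with a median of -0.10, against 0.30, 0.10, 0.28 and 0.27 in WT saline arrays. Every LPS array lay below every saline array of its genotype. Hpgd fell by 0.42 in KO on the log2 scale (SE 0.07, adjusted p = 0.000496), to 0.747 of its saline level, and fell by 0.33 in WT (SE 0.07, adjusted p = 0.00601), to 0.795 of it. The WT call was lost without the 4 arrays high in choroid plexus or pituitary genes (-0.28, adjusted p = 0.114). Within the low and the high numbers the difference was -0.60 and -0.36 in KO and -0.34 and -0.32 in WT, and those of the low numbers passed.

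**Figure D1:**
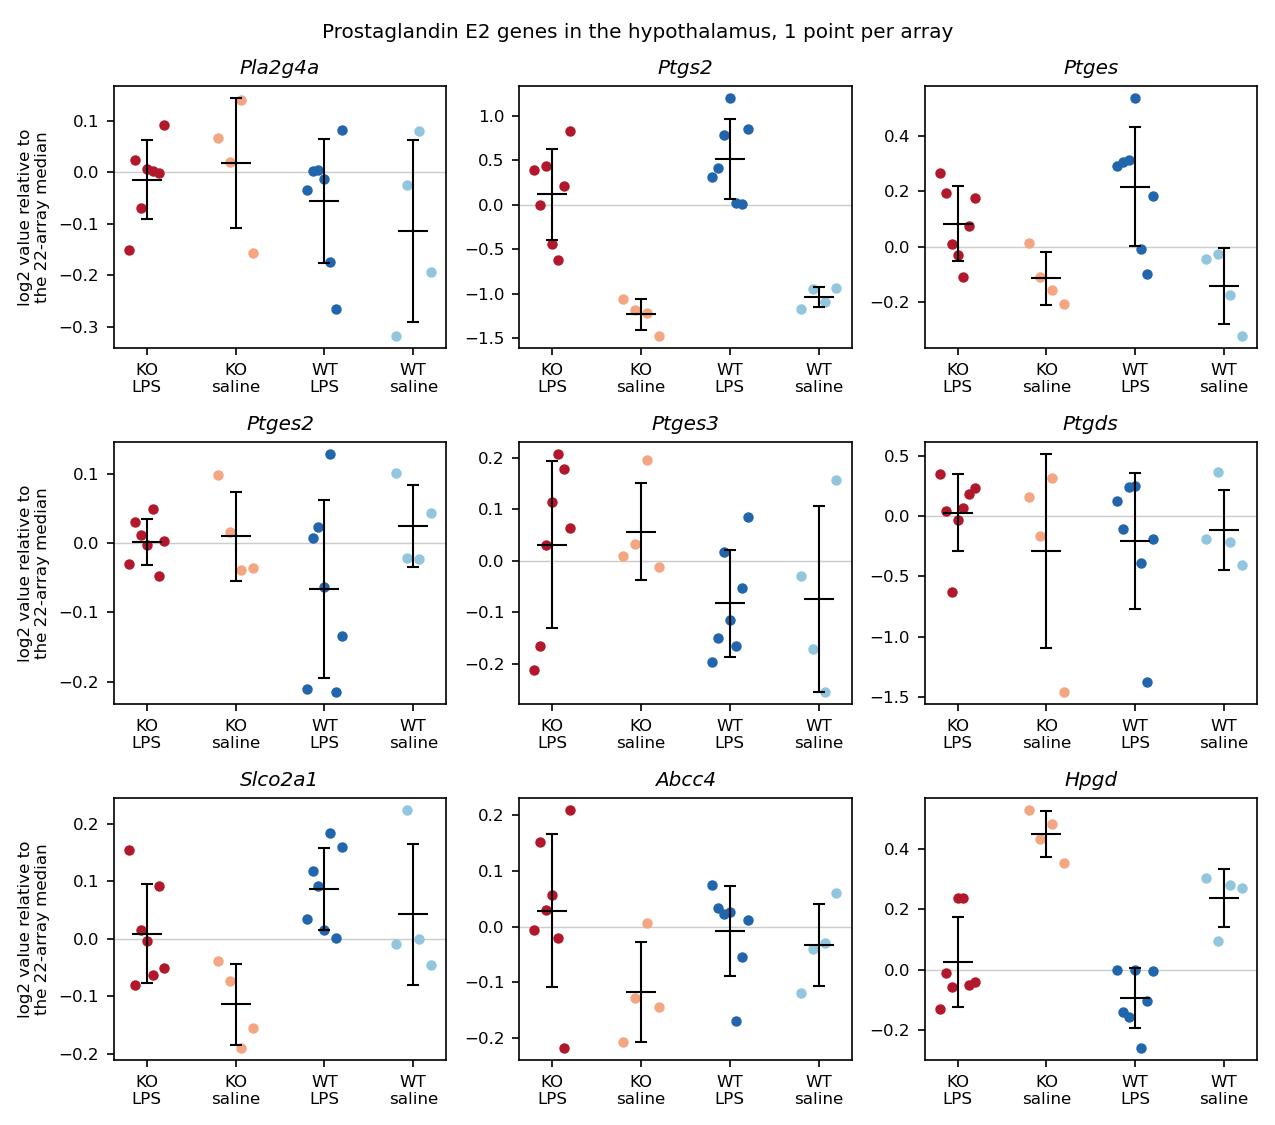
Values of the 9 measured genes on 22 arrays, as log2 relative to the median array (vertical axis, its range set for each gene); points are arrays, bars the group mean and SD, with 7 KO LPS, 4 KO saline, 7 WT LPS and 4 WT saline arrays. Within each genotype, LPS and saline arrays separate fully for Ptgs2 and Hpgd and overlap for the other genes, Ptges among them.

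The remaining 6 genes were not called after LPS in either genotype. Pla2g4a, the cytosolic phospholipase A2 that supplies arachidonic acid, differed by -0.03 in KO and 0.06 in WT (SE 0.07 each). It is the coding gene next to Ptgs2 on chromosome 1 in the RefSeq annotation, so the gene that changed most and one that did not pass are neighbours. Ptges2, a membrane-associated synthase, differed by -0.0081 in KO and -0.09 in WT (SE 0.05 each), and Ptges3, the cytosolic synthase also known as the co-chaperone p23, by -0.03 and -0.0083 (SE 0.08 each). Ptges2 lies beside Lcn2, a secreted lipid carrier of the acute phase response, which rose by 2.31 in KO (SE 0.20, adjusted p = 4.37e-08) and by 3.39 in WT (SE 0.20, adjusted p = 4.09e-11).

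The transporters gave small differences. Slco2a1, which carries prostaglandins into cells, differed by 0.12 in KO (SE 0.06, adjusted p = 0.756) and 0.04 in WT (SE 0.06). Abcc4, an exporter of prostaglandins, differed by 0.15 in KO (SE 0.06, adjusted p = 0.694) and 0.02 in WT (SE 0.06). In KO the 95% interval ran from 0.0088 to 0.24 for Slco2a1 and from 0.016 to 0.28 for Abcc4, so larger rises lay outside the intervals. The unadjusted p in limma's test was 0.036 for Slco2a1 and 0.0297 for Abcc4 in KO. Over all genes, 1164 had an unadjusted p under 0.05 in that comparison. Ptgds, the lipocalin-type prostaglandin D synthase, which takes the same substrate to prostaglandin D2, was the least precise, at 0.32 in KO and -0.09 in WT (SE 0.29 each).

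Over all genes tested, 1.34% were called for LPS in KO (267 genes, 216 higher and 51 lower), and among the 9 genes it was 1 higher (Ptgs2) and 1 lower (Hpgd). In WT 1.8% of all genes were called (359 genes, 284 higher and 75 lower), and among the 9 it was 2 higher (Ptgs2, Ptges) and 1 lower (Hpgd). Averaged over genotypes the share was 2.76%, and the same 3 genes passed. The median difference of the 9 genes was 0.12 in KO and 0.02 in WT, beside -0.0089 and -0.01 over all genes. LPS and saline arrays did not overlap for 2 of the 9 genes in each genotype, beside 1.66% of all genes in KO and 2.34% in WT.

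**Figure D2:**
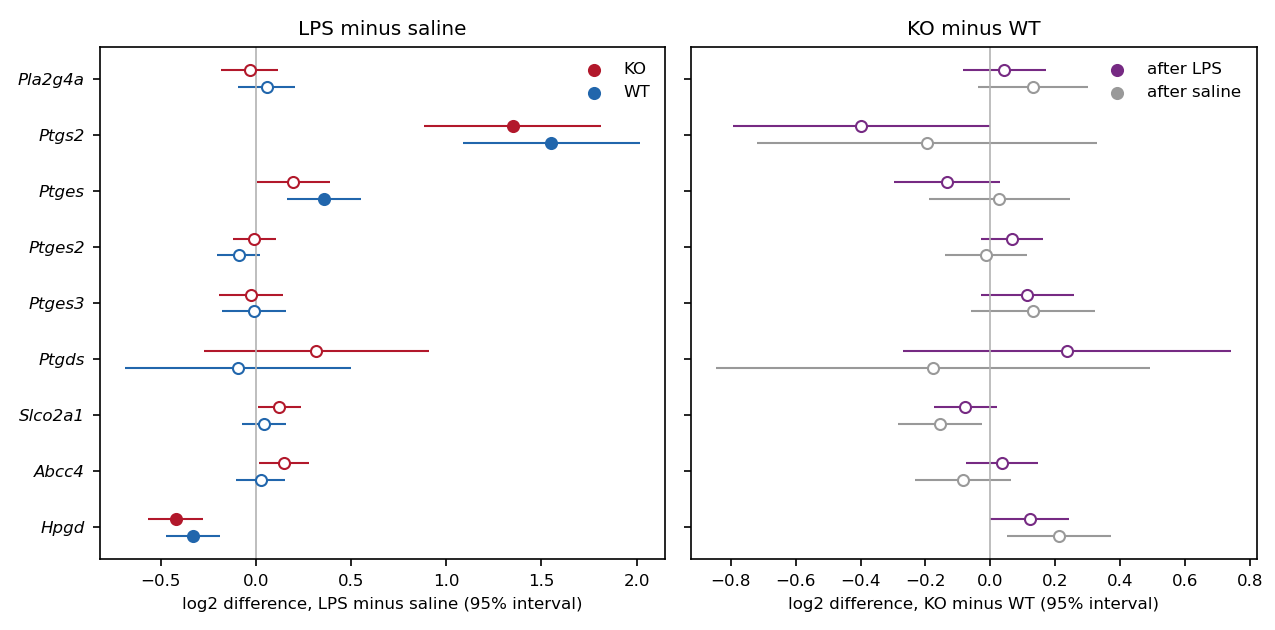
Log2 differences of the 9 measured genes with 95% intervals from limma; filled points are called at an adjusted p under 0.05 and open points are not. On the left, LPS minus saline in KO (red) and WT (blue); on the right, KO minus WT after LPS (purple) and after saline (grey), where no gene was called.

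None of the 9 genes was called between genotypes. After LPS, the comparison the study names, Ptgs2 averaged 0.12 ± 0.51 in KO and 0.52 ± 0.45 in WT arrays (SD, n = 7 each). The difference of -0.40 (SE 0.19, 95% interval -0.79 to -0.0023) had an unadjusted p of 0.0488, an adjusted p of 0.437 in limma's test and an exact permutation p of 0.149. Of the KO arrays, 3 of 7 lay below every WT array, and the highest value was in WT. The difference was -0.35 within the low numbers and within the high numbers. The share of all genes called was 0.0401% (8 genes), with 2267 at an unadjusted p under 0.05.

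After saline Ptgs2 averaged -1.23 ± 0.18 in KO and -1.04 ± 0.11 in WT arrays (SD, n = 4 each), a difference of -0.20 (SE 0.25). The test of whether the LPS response of Ptgs2 differed between genotypes gave -0.20 (SE 0.32, 95% interval -0.86 to 0.45, adjusted p = 0.99999). The order of the group means was WT LPS, KO LPS, WT saline and KO saline, and neither genotype step in that order passed. Over all genes 0.00502% (1 gene) were called between genotypes after saline, with 1030 at an unadjusted p under 0.05, and 0% for the interaction, with 327 at an unadjusted p under 0.05. None of the 9 genes reached an unadjusted p under 0.05 for the interaction.

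Hpgd and Slco2a1 differed between genotypes in opposite directions without passing. Hpgd was higher in all 4 KO saline arrays than in any WT saline array, a difference of 0.21 (SE 0.08, adjusted p = 0.84 in limma's test) with an exact permutation p of 0.0286, the smallest that 4 against 4 allow. Such separation held for 2.97% of all genes after saline, and for 0.13% of all genes and none of the 9 after LPS. After LPS Hpgd differed by 0.12 (SE 0.06, adjusted p = 0.44), and averaged over treatments by 0.17 (SE 0.05, adjusted p = 0.171). Slco2a1 differed by -0.16 after saline (SE 0.06, adjusted p = 0.84), by -0.08 after LPS (SE 0.05, adjusted p = 0.535) and by -0.12 averaged over treatments (SE 0.04, adjusted p = 0.191). Over all genes 0.0251% (5 genes) were called in the averaged comparison, with 3241 at an unadjusted p under 0.05.

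The genotype differences of Ptges and Ptges3 moved with the title numbers. Ptges averaged 0.08 ± 0.13 in KO LPS and 0.22 ± 0.22 in WT LPS arrays (SD, n = 7 each), a difference of -0.13 (SE 0.08, adjusted p = 0.523). It was -0.04 with the set of numbers as a term, and -0.06 and -0.02 within the low and the high numbers. Ptges3 was higher by 0.12 in KO when averaged over treatments (SE 0.06, adjusted p = 0.297), but also by 0.21 on arrays numbered 12 to 22 (SE 0.04, adjusted p = 0.00162), and with the set of numbers as a term its genotype difference was 0.03. Pla2g4a, Ptges2, Abcc4 and Ptgds differed between genotypes after LPS by 0.04, 0.07, 0.04 and 0.24, with adjusted p from 0.573 to 0.830. The Ptgds difference was 0.04 without WT LPS replicate 6, and 0.17 and 0.75 within the low and the high numbers.

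Other genes of eicosanoid metabolism were read from lists of related enzymes and receptors. Among 10 measured prostanoid synthases and prostaglandin reductases of 12 listed, Hpgds, the haematopoietic prostaglandin D synthase, fell by 0.21 in KO (SE 0.05, adjusted p = 0.0437), and no gene passed in WT, where Hpgds differed by -0.02 (SE 0.05). The interaction for Hpgds was -0.19 (SE 0.07, adjusted p = 0.99999). Among 16 measured of 17 phospholipases and lipases, Pla2g3, a secreted phospholipase A2, rose by 0.36 in WT (SE 0.06, adjusted p = 0.0013) and differed by 0.22 in KO (SE 0.06, adjusted p = 0.118). Averaged over genotypes, Pla2g3 rose by 0.29 (SE 0.05, adjusted p = 0.000136). None of 10 lipoxygenase and leukotriene genes and none of 6 prostanoid receptors outside the EP family passed in either genotype.

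Of 6 genes that hold eicosanoid output down, 2 rose in both genotypes and 4 did not pass. Tsc22d3, the glucocorticoid-induced leucine zipper GILZ, rose by 0.61 in KO (SE 0.06, adjusted p = 8.65e-07) and 0.59 in WT (SE 0.06, adjusted p = 1.15e-06). Zfp36, which encodes tristetraprolin, a protein that destabilises messenger RNAs with AU-rich elements, rose by 0.52 in KO (SE 0.12, adjusted p = 0.0251) and 0.68 in WT (SE 0.12, adjusted p = 0.00118). The median LPS difference of the list was 0.12 in KO and 0.15 in WT. No gene of these 5 lists was called in the genotype comparisons or the interaction.

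**Figure D3:**
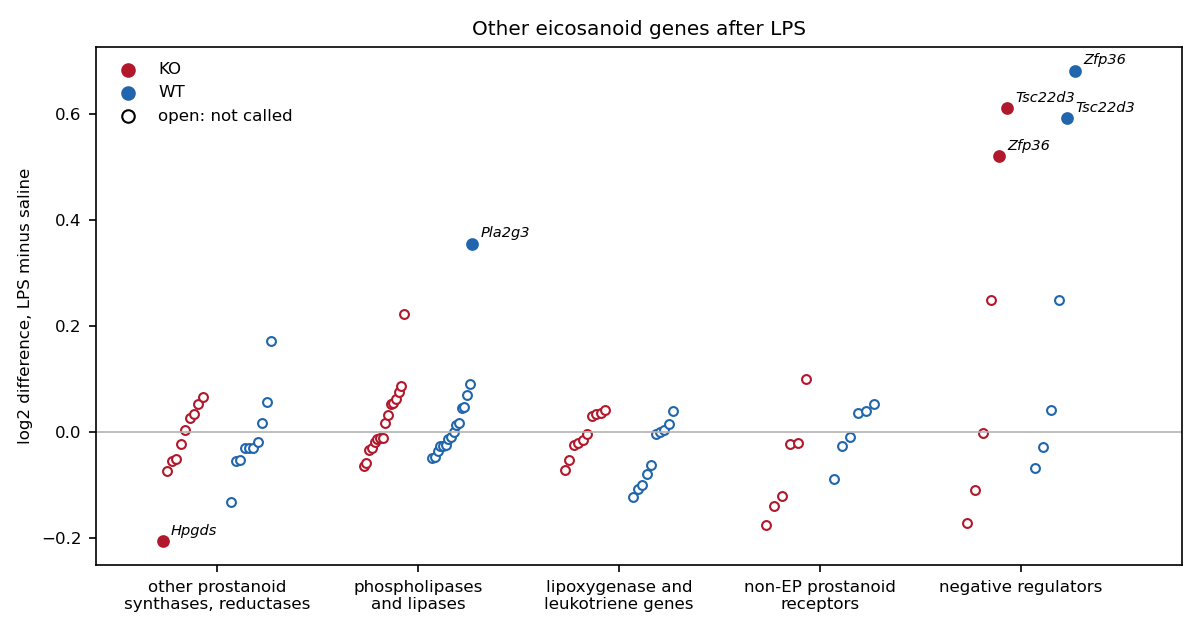
LPS minus saline differences (log2, vertical axis) of the measured genes of 5 lists of eicosanoid genes in KO (red) and WT (blue); filled, named points are called and open points are not. Most points lie near 0, and Tsc22d3 and Zfp36 are the named points called in both genotypes.

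Markers of cell types of the brain, its vessels, blood and neighbouring tissue were read on the same arrays. Which cells carry the 9 genes was not measured. Endothelial markers were lower after LPS, with 9 of 13 measured markers of 14 listed called lower in KO and 9 in WT, among them Cldn5 (-1.08 and -1.14), a tight junction protein, and Slco1a4 (-1.08 and -1.43), a transporter of the blood-brain barrier. The mean of the list ran from -0.12 to 0.10 in KO LPS arrays, against 0.29 to 0.41 in KO saline arrays, and from -0.20 to -0.12 in WT LPS arrays, against 0.26 to 0.36 in WT saline arrays. Hpgd thus fell together with this list, and the part of the list in its fall was not tested. Among 9 measured microglia markers none passed in KO and 2 were lower in WT, and none of 6 perivascular macrophage, 11 fibroblast, 10 choroid plexus or 7 measured pituitary markers passed in either genotype. The same held for the measured markers of pericytes (6), oligodendrocytes (9), astrocytes (7), neurons (6), hypothalamic neurons (10), neutrophils (6) and erythrocytes (1).

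Among arrays of one group, some genes moved with each other or with a marker list, as measured by the correlation of deviations from group means over 22 arrays (8 relations, permutation within groups, adjusted over the 8). Ptgs2 and Ptges moved together, with Pearson's r of 0.67 (permutation p = 0.00223, adjusted 0.00707) and Spearman's rho of 0.54 (permutation p = 0.0189, adjusted 0.0504). Without the 2 arrays farthest from the median Ptgs2 value r was 0.66. With the set of numbers also removed it was 0.81 over all 22 arrays, and 0.78 without the 2 arrays then farthest. In KO LPS replicates 4 and 5, Ptgs2 (-0.43 and -0.62) and Ptges (-0.03 and -0.11) were the lowest of their group and Hpgd (0.24 in each) the highest. The endothelial list was also highest there in that group, at 0.10 and 0.06, and so was the microglia list, at 0.05 and 0.08. The mean of the pituitary markers was -0.09 on replicate 4 and 0.64 on replicate 5.

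Hpgd followed the endothelial list within groups, with r of 0.73 (permutation p = 0.00265, adjusted 0.00707) and rho of 0.65 (permutation p = 0.0033, adjusted 0.0132). Without the 2 arrays farthest from the median of the list r was 0.58. With the set of numbers also removed it was 0.72 over all 22 arrays, and 0.54 without the 2 arrays then farthest. Slco2a1, Abcc4 and Ptgs2 gave r of -0.21, 0.15 and -0.29 with the same list, with adjusted permutation p from 0.478 to 0.681.

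Ptgds varied widely among arrays of a group, with SDs from 0.32 to 0.80. In KO LPS arrays it ranged from -0.63 to 0.35 with a median of 0.06, against 0.15, -0.17, 0.31 and -1.46 in KO saline arrays. In WT LPS arrays it ranged from -1.38 to 0.25 with a median of -0.11, against -0.19, 0.36, -0.22 and -0.41 in WT saline arrays. A single low array set the spread of 3 of these groups, namely KO LPS replicate 3, KO saline replicate 4 and WT LPS replicate 6. Without KO saline replicate 4 the LPS difference in KO was -0.07, in place of 0.32.

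Ptgds followed the markers of meningeal and perivascular fibroblasts, cells that line the brain surface and its vessels. Within groups r was 0.85 and rho 0.91 over 22 arrays (permutation p = 1.0e-05 for each, adjusted 8.0e-05, the smallest the permutations can give). Without the 2 arrays farthest from the median of the list r was 0.85. With the set of numbers also removed it was 0.81 over all 22 arrays, and 0.73 without the 2 arrays then farthest. The list mean was -0.22 on KO LPS replicate 3, -0.28 on KO saline replicate 4 and -0.33 on WT LPS replicate 6, the lowest of its group on each. The pericyte list mean was also the lowest of its group on these arrays, at -0.08, -0.14 and -0.10 in the same order. So was the oligodendrocyte list mean, at -0.21, -0.08 and -0.32. The relation of Ptgds with the pericyte list was not tested. The relation with the choroid plexus list was r = 0.08 (permutation p = 0.681, adjusted 0.681). With the oligodendrocyte list r was 0.52 (permutation p = 0.0186, adjusted 0.0372) and rho 0.34 (permutation p = 0.151, adjusted 0.301), with r = 0.23 without the 2 arrays farthest from the median of the list. With the set of numbers also removed it was 0.48 (permutation p = 0.029, adjusted 0.058), and 0.48 without the 2 arrays then farthest.

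**Figure D4:**
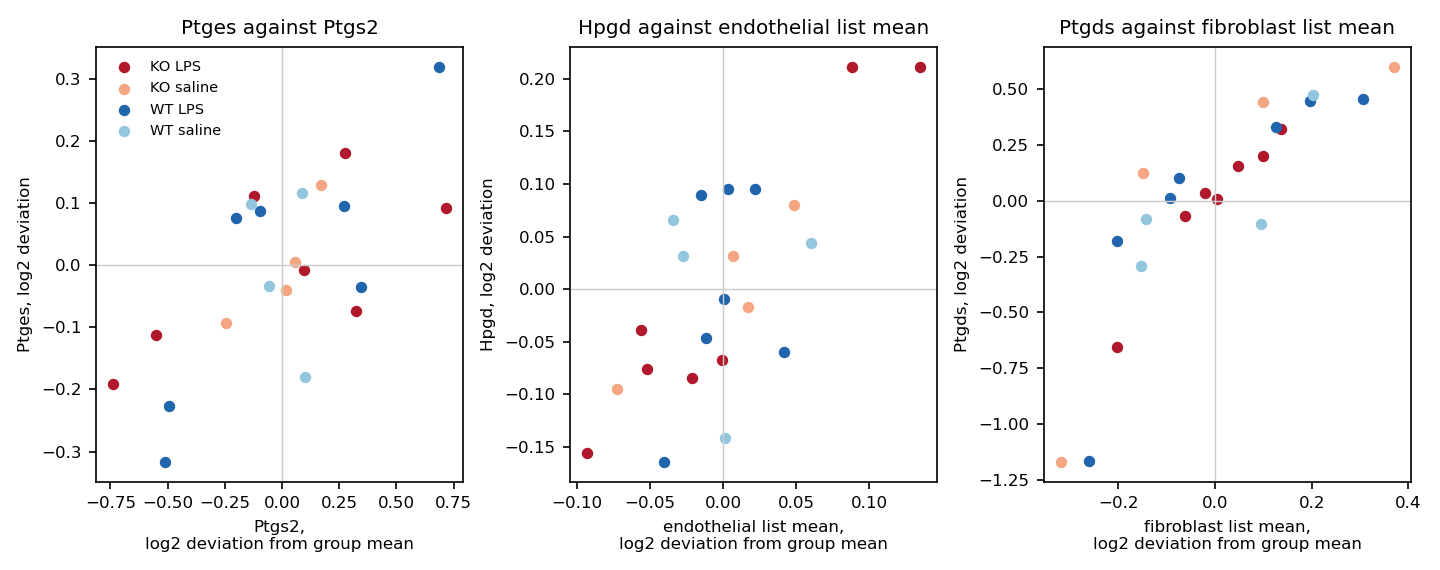
Deviations from the group mean (log2) on 22 arrays, coloured by group: Ptges against Ptgs2, Hpgd against the mean of the endothelial markers, and Ptgds against the mean of the fibroblast markers. The points rise from lower left to upper right in all 3 panels, with r of 0.67, 0.73 and 0.85.

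The genes most like the ones that moved were ranked by Pearson's r over the 22 array values, as a description of arrays that share the LPS difference. For Ptgs2 they were Osmr (0.962), Ch25h (0.962), Pfkfb3 (0.958), Errfi1 (0.958) and Map3k6 (0.956), and over deviations from group means Tnfaip3 (0.885), Slfn4 (0.885), Cxcl10 (0.879), Adamts1 (0.870) and Mx2 (0.855). For Ptges they were Ccl19 (0.922), Ifitm2 (0.906), Nfkb2 (0.894), Rhoc (0.892) and Ccl2 (0.884), and Ccl19 was again first over deviations (0.853). For Hpgd they were Sox2 (0.933), Trim59 (0.927), Slco1a4 (0.920), Tek (0.914) and Nr3c1 (0.905), of which Slco1a4 and Tek are in the endothelial list. Over deviations they were Acadm (0.810), Wdr45b (0.793), Dcps (0.791), Sh3gl3 (0.788) and Tmco1 (0.775), none of them in that list. For Ptgds they were Itih2 (0.930), Serpind1 (0.875), Aldh1a2 (0.873), Slc6a13 (0.871) and Serping1 (0.863), of which Aldh1a2 is in the fibroblast list. Over deviations they were Itih2 (0.9498), Slc6a13 (0.927), Vtn (0.910), Slc6a20a (0.908) and Serpind1 (0.906), of which Vtn is in the pericyte list. The likest gene of Slco2a1 was Bak1 (0.786) and that of Abcc4 2700046A07Rik (0.794).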

How the data were processed

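The authors deposited log2 values of 28815 probe sets on 22 arrays. RMA, which corrects background, quantile-normalizes arrays and summarises probes, is named in the submitters' processing notes with no version; genome build and annotation release are not given in the sources used here. Row medians of the deposited table were 0 (largest absolute value 7.02e-07), so rows had been centred, and base 2 was taken because RMA gives it. Probe sets with a single symbol in the platform annotation were averaged per gene; 21689 of 21780 matched RefSeq by gene ID, and 1605 probe sets with several symbols and 5430 with none were left out.

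One mean per group was fitted with limma 3.58.1 in R 4.3.3 over all 22 arrays, with 7 contrasts, two-sided, and Benjamini-Hochberg adjustment over all genes. The script was tested on simulated data. Exact permutation tests (scipy 1.17.1) of the 9 genes in 4 comparisons made 36 tests, whose p-values are unadjusted; relations used 100000 permutations within groups. Precision is limited by the number of arrays. Groups came from the labels, and replicates were numbered in accession order. All 10 genes are named, with the genes of other lists that were called and the 5 likest genes of the main ones. Genes and lists were chosen with earlier results of these data known. Alternatives left out each array, the low or the high title numbers or the 4 arrays, added array weights or the set of numbers as a term, centred arrays, or changed the probe sets and the moderation. Promoter windows and gene neighbours came from RefSeq (GRCm38.p6), whose build may differ from the authors'.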

Additional observations from a re-analysis of the deposited data

Results flagged for a closer look

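In 4 of 36 sets of a gene and a group, a single array lay apart from the rest by Dixon's ratio of its gap to the group's range; chance alone flags about 1 in 20 such sets. In WT saline arrays, Hpgd was low on replicate 2, at 0.10 against 0.27 for the nearest array (ratio 0.838, critical value 0.829), and Slco2a1 was high on the same replicate, at 0.22 (ratio 0.834). Ptgds was low on KO LPS replicate 3, at -0.63 against -0.04 for the nearest array (ratio 0.604, critical value 0.568), one of the 4 arrays high in choroid plexus or pituitary genes. Ptgds was also low on WT LPS replicate 6, at -1.38 against -0.39 (ratio 0.608). Both low Ptgds arrays had the lowest fibroblast, pericyte and oligodendrocyte marker means of their group, as given above. The part of these lists in the low values was not tested.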

How the results depend on the processing

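No value of the 9 genes that was called changed sign in any alternative. Of the 9 genes, the number called for LPS in KO, 2 of 9, was 1 on arrays numbered 1 to 11 and 0 on those numbered 12 to 22; in WT, 3 of 9, it was 0 on arrays numbered 12 to 22 and 1 without the 4 arrays high in choroid plexus or pituitary genes; averaged over genotypes, 3 of 9, it was 2 on arrays numbered 1 to 11 and 1 on those numbered 12 to 22. Those subsets leave some groups with 1 array, assumed to vary like the others. Leaving out each array in turn gave 2 called genes in KO each time, 2 to 3 in WT, 2 to 3 averaged, and 0 in the genotype comparisons and the interaction. With array weights, 3 of the 9 genes were called for KO minus WT averaged over treatments (Hpgd 0.19, Ptges3 0.16 and Slco2a1 -0.13), along with 2054 of all genes in place of 5; the cause was not tested. Beyond those subsets Ptgs2 was called for LPS in both genotypes in all alternatives of the limma fit, with differences from 1.23 to 1.47 in KO and 1.44 to 1.64 in WT when single arrays were left out. By unadjusted exact permutation, Ptges (p = 0.0424) and Slco2a1 (p = 0.0485) after LPS in KO fell under 0.05. Over all genes, calls for LPS were 145 and 166 within the low and the high numbers in place of 267 in KO, 45 on arrays 12 to 22 in place of 359 in WT, and 209 in place of 550 averaged. KO minus WT after LPS gave 0 to 614 calls in place of 8, the highest with array weights and 47 without KO LPS replicate 1; after saline 0 to 3 in place of 1; averaged, without KO LPS replicate 1, 173. No paired analysis was possible because the labels give no replicate number that groups share.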
